A study of Mus musculus with 10 samples.

Results

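The genes described here are the subunits of the phagocyte NADPH oxidase *Cybb*, *Cyba*, *Ncf1*, *Ncf4* and *Rac2*, and the catalytic homologue *Nox4*. They were chosen by name, and all 6 had a row among the 25232 genes of the table analysed. The RNA came from the spinal cord of female mice at 90 days of age, with the strain given as C57BL/6 in the labels and C57BL/6J in the methods. One group was 5 wild type (WT) mice and the other 5 SOD1G93A mice, in which mutant human *SOD1* inserted at a high copy number leads to loss of motor neurons. According to the methods, the WT mice were littermates and the lumbar region was dissected, while the sample labels name no region. Libraries were made from mRNA with a stranded kit, and each gene has 1 base mean, that is, its counts divided by the size factors of the libraries and averaged over all 10 of them. This mean pools both genotypes and holds no value of a single mouse. The levels below are therefore levels in WT and SOD1G93A cords combined, and neither a difference between the genotypes nor a spread between mice can be read from them. The remaining columns of the table hold the authors' own comparison of the genotypes and were not used.

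NADPH oxidases pass electrons from NADPH across a membrane to oxygen, which yields superoxide or hydrogen peroxide. In phagocytes, a catalytic subunit in the membrane is held by a small partner, and it becomes active once a set of subunits has moved from the cytosol to the membrane together with a Rac GTPase. In the spinal cord this enzyme is known mainly from microglia, the resident macrophages, and neutrophils and macrophages from the blood carry it as well. Nox4 binds the same small partner, needs none of the cytosolic subunits, releases mostly hydrogen peroxide and is known from vascular and other cells outside the myeloid lineage.

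Summed over all genes of the table, the base means came to 22158933, the mean normalised total of a library, and 20973 genes lay above 0. Markers of the tissue were present: the myelin gene *Mbp* had the highest base mean of the table (319615), and *Chat*, the gene of the enzyme that makes acetylcholine in motor neurons, had 735. The base mean of the mouse gene *Sod1* was 3849. The human transgene has no row of its own, so the pooled table gives no check of the genotype labels. Whether reads of the transgene were counted for mouse *Sod1* was not tested. For each level a 95% counting interval was computed by taking the base mean times 10 as a count of reads. These intervals cover counting error only, not differences between mice, and assume that the size factors were near 1. In bulk tissue, a low level in many cells and a high level in few cells cannot be told apart.

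All the oxidase subunits of the set were detected, at low levels. The membrane subunits differed among themselves. *Cybb*, the catalytic subunit also named gp91phox or Nox2, had a base mean of 50.7 (counting interval 46.4 to 55.3), which corresponds to about 507 reads over all libraries. *Cyba*, the small partner p22phox that within this set stabilises Cybb and Nox4, had a base mean of 126 (119 to 133). *Nox4* was the lowest of the 6, with a base mean of 24.4 (21.5 to 27.7), or about 244 reads. The counting intervals of these membrane subunits did not overlap. *Cybb* lies on the minus strand of chromosome X of GRCm38 from 9435252 to 9487771, *Cyba* on the minus strand of chromosome 8 from 122424776 to 122432930, and *Nox4* on the plus strand of chromosome 7 from 87246096 to 87398710.

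Of the cytosolic subunits, *Ncf1* stood highest. *Ncf1* encodes p47phox, the organiser that carries the cytosolic complex to the membrane, and its base mean of 210.0 (201 to 219) was the highest of the 6 genes. *Ncf4*, the gene of p40phox, which binds a phosphoinositide of the phagosome membrane, had a base mean of 29.6 (26.3 to 33.1), so that *Ncf1* exceeded *Ncf4* by 7.11 times in reads (6.29 to 8.05) and by 3.92 times per kb of merged exons (3.47 to 4.44). *Rac2*, the Rac GTPase of blood cells, had a base mean of 87.7 (82.0 to 93.7). In reads the order from high to low was *Ncf1*, *Cyba*, *Rac2*, *Cybb*, *Ncf4* and *Nox4*. The counting intervals of *Ncf4* and *Nox4* overlapped, and those of all other neighbours in this order did not. *Ncf1* lies on the minus strand of chromosome 5 from 134220053 to 134229625. *Ncf4* and *Rac2* are both on chromosome 15, from 78244801 to 78262580 on the plus strand and from 78559167 to 78572783 on the minus strand.

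The exons of *Ncf1* share 408 bases, 11.1% of their length, with *Gtf2ird2* on the opposite strand, whose base mean was 482. Whether the counting used the strand is not given in the sources used here. The effect of this overlap on the value of *Ncf1*, in either direction, was not tested. The exons of *Cybb*, *Cyba*, *Ncf4*, *Rac2* and *Nox4* share no base with exons of another gene in GENCODE vM21.

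**Figure D1:**
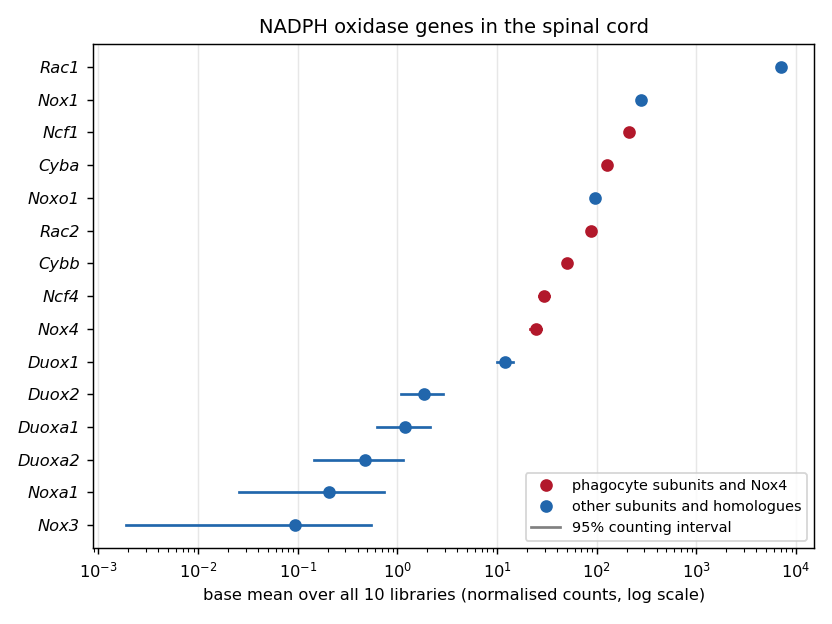
Base mean over all 10 libraries (log scale, normalised counts) of the 6 oxidase genes described (red) and of 9 other subunits and homologues (blue). Points are the base means and lines the 95% counting intervals, which are hidden by the point where narrow. The red genes lie between 24.4 and 210.0, below *Nox1* and *Rac1* and above *Duox1*.

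A longer transcript yields more fragments, and levels of different genes were therefore compared as base mean per kb of merged exons. *Cyba*, whose merged exons measure 1039 bases, then had the highest level, 121 per kb (115 to 128). *Ncf1* followed at 57.3 per kb (54.9 to 59.8), *Rac2* at 28.3 (26.4 to 30.2) and *Ncf4* at 14.6 (13.0 to 16.4). *Cybb* had 8.74 per kb (7.99 to 9.53) and *Nox4* 2.89 (2.54 to 3.27). None of these intervals overlapped, and the whole set spanned 42.1 times from *Nox4* to *Cyba*. The partner *Cyba* thus exceeded its catalytic subunit *Cybb* by 13.9 times per kb (12.5 to 15.4) and *Nox4* by 42.1 times (36.7 to 48.4). Of the catalytic genes in the set, *Cybb* exceeded *Nox4* by 3.03 times per kb (2.59 to 3.54). Catalytic genes outside the set do not enter these ratios, and *Nox1* among them had 85.0 per kb.

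The length chosen changed these ratios more than counting error did. GENCODE gives *Nox4* 8 transcripts, with 8471 bases of merged exons against 3921 in the longest of them, and *Cybb* 5 transcripts, with 5808 against 4752. Per kb of the longest transcript the order of the 6 genes was the same. Per kb of coding sequence, *Cybb* (29.7) and *Ncf4* (29.1) changed places with a ratio of *Ncf4* to *Cybb* of 0.979 (0.846 to 1.13), where merged exons gave 1.67 (1.45 to 1.94). The order of these 2 genes therefore depends on the length. *Cyba* stayed first and *Nox4* last with each of the 3 lengths.

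**Figure D2:**
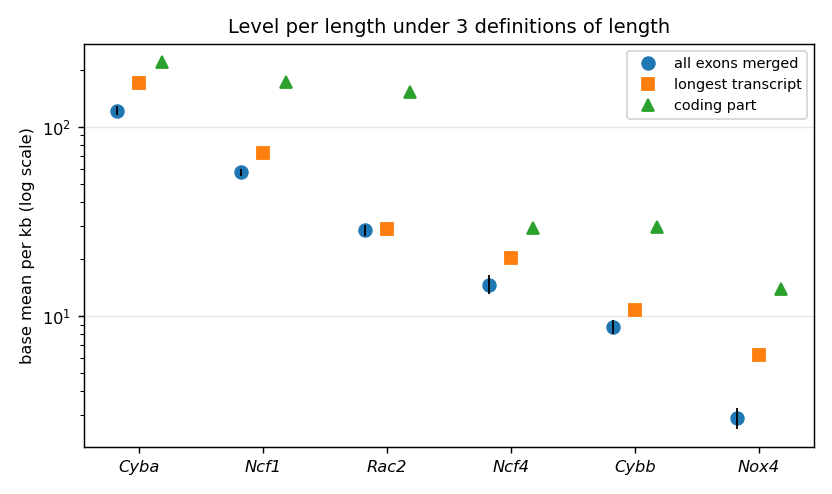
Base mean per kb (log scale) of the 6 genes, with the length taken as all merged exons (circles, with 95% counting intervals as lines), the longest transcript (squares) or the coding part (triangles). *Cyba* is highest and *Nox4* lowest under each, and *Cybb* and *Ncf4* are level when the coding part is used.

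Against all genes of the table, the oxidase subunits were in the lower part. The median base mean of the 20973 genes above 0 was 247, and 0 of the 6 genes exceeded it. *Ncf1* came closest, at percentile 48.0. *Cyba* was at percentile 42.3, *Rac2* at 38.9, *Cybb* at 34.6, *Ncf4* at 30.8 and *Nox4* at 29.6. Together the 6 genes made up 23.9 of every 1000000 normalised counts. Per kb, *Cyba* stood at percentile 62.5 of the 20360 genes above 0 with a gene model, and it was the 1 gene of the set above their median of 63.5 per kb. *Cybb* was at percentile 27.3 and *Nox4* at 19.6 on that scale.

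**Figure D3:**
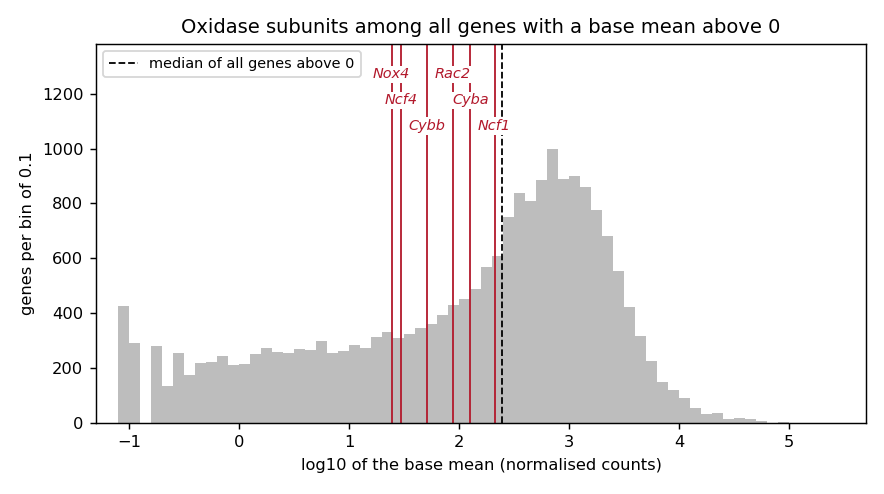
Number of genes in bins of the log10 base mean (normalised counts) for all genes above 0, with the 6 oxidase genes as red lines and the median of all genes as a dashed line. All 6 red lines are left of the median of 247.

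The rest of the oxidase machinery was followed over 9 genes. *Rac1*, the widely expressed GTPase that can stand in for Rac2, had a base mean of 7108 and exceeded *Rac2* by 55.9 times per kb (52.3 to 59.8). The exons of *Rac1* overlap those of *Daglb* on the opposite strand over 51.4% of their length, and *Daglb* had a base mean of 864.

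*Nox1*, the catalytic homologue best known from colon epithelium, had the highest level of the 6 catalytic genes *Cybb*, *Nox1*, *Nox3*, *Nox4*, *Duox1* and *Duox2*. Its base mean was 281 (271 to 292). Per kb of merged exons *Nox1* had 85.0, which was 85.7% of the sum over the 6 catalytic genes, where *Cybb* made up 8.80% and *Nox4* 2.91%. *Nox1* exceeded *Cybb* by 9.73 times per kb of merged exons (8.85 to 10.7) and by 5.61 times (5.10 to 6.18) when the coding length was used. The gene models of *Nox1* differ, since it spans 51291 bases in RefSeq and 135536 in GENCODE vM21. In GENCODE, 12.1% of its exon bases overlap *Cstf2* on the opposite strand, and *Cstf2* had a base mean of 3287. The part of these overlaps in the level of *Nox1* was not tested.

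The cytosolic partners of Nox1 were unequal. *Noxo1*, the organiser, had a base mean of 95.7, with 70.4% of its exon bases shared with *Tbl3* on the opposite strand, whose base mean was 803. *Noxa1*, the activator, had a base mean of 0.204, about 2 reads over all libraries, and *Nox3*, known from the inner ear, one of 0.0932, about 1 read. Both lie below the floor set here, which is 3 reads or a base mean of 0.3. Their counting intervals were 0.0256 to 0.729 for *Noxa1* and 0.00187 to 0.545 for *Nox3*, so neither level could be measured with any precision at this depth. The dual oxidases, which serve hormone synthesis in the thyroid, were low: *Duox1* had a base mean of 12.1, or about 121 reads over all libraries, *Duox2* one of 1.83 (1.09 to 2.89), and their maturation factors *Duoxa1* and *Duoxa2* 1.20 and 0.471. *Nox4* exceeded *Duox1* in reads, with a ratio of *Duox1* to *Nox4* of 0.494 (0.394 to 0.617), and the ratio was 0.794 per kb of merged exons (0.633 to 0.992), 0.368 per kb of the longest transcript and 0.188 per kb of coding sequence.

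Genes for the assembly and activation of the oxidase covered a wide range. Per kb of merged exons, all 10 genes of this list lay above the median of the 6 subunits and 6 of the 10 above *Cyba*. Per kb of coding sequence, 9 of the 10 lay above the median, with *Vav1* below it, and 9 above *Cyba*. *Cybc1*, the chaperone needed to make the Cybb and Cyba pair, had a base mean of 812 and exceeded *Cybb* by 22.1 times per kb of merged exons (20.2 to 24.2), which became 31.5 times with the longest transcript and 48.8 times with the coding length. *Hvcn1*, the proton channel that balances the charge moved by the phagocyte oxidase, had 411, with 44.2% of its exon bases shared with *Tctn1* on the opposite strand (base mean 785). The exchange factor of blood cells *Vav1*, which loads Rac with GTP, was the lowest of the list with a base mean of 123 and 33.5 per kb. *Arhgdib*, the inhibitor of blood cells that keeps Rac GTPases in the cytosol, had 99.2 per kb against 2640 for its widely expressed relative *Arhgdia*. Also in this list, *Prkcd*, a kinase that phosphorylates p47phox, had a base mean of 622, *Rap1a* 1505, *Poldip2*, reported to bind the Cyba and Nox4 pair, 2158, the protein disulfide isomerase gene *P4hb* 3884 and the Rac target *Pak1* 8594.

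Of the enzymes that remove the products of the oxidase, *Sod1*, *Cat*, *Gpx1* and *Sod2* were among the more abundant transcripts, whereas *Sod3* was at percentile 59.9 of the base means. Per kb of merged exons, the cytosolic superoxide dismutase gene *Sod1* had 970, *Cat*, the gene of catalase, 1010, *Gpx1* 1000, the mitochondrial *Sod2* 341 and the extracellular *Sod3* 121. The order among them depended on the length. Per kb of coding sequence, *Sod1* had 8330, *Sod2* 5130, *Gpx1* 2400 and *Cat* 1660. *Sod1*, *Cat*, *Gpx1* and *Sod2* exceeded *Cyba* with each of the 3 lengths. The place of *Sod3* relative to *Cyba* also depended on the length. It differed from *Cyba* by less than the counting interval with merged exons, lay below it with the longest transcript and above it per kb of coding sequence (603 against 219). *Mpo*, the myeloperoxidase gene of neutrophil granules, which turns hydrogen peroxide into hypochlorous acid, had 2.38 per kb and a base mean of 8.14.

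The subunits were set beside marker genes of the cells that could carry them. Per kb of merged exons, the 6 microglial markers ranged from 72.2 for *Aif1* to 527 for *Csf1r*, with a median of 218, and all 6 lay above *Ncf1*. *Csf1r* exceeded *Cybb* by 60.3 times per kb of merged exons (55.2 to 66.0) and by 35.0 times per kb of coding sequence (32.0 to 38.3). The exons of *Csf1r* overlap those of *Hmgxb3* on the opposite strand (base mean 1064) over 15.1% of their length. Those of *Itgam*, another of the microglial markers, overlap *Gm49368* on the same strand over 68.7%. *Gm49368* has no row among the genes analysed, so it has no base mean here. The part of these overlaps in the marker levels was not tested. The 4 markers of border macrophages had a median of 11.4 per kb, from 4.65 for *Lyve1* to 14.7 for *Pf4*, a range that includes *Cybb* and *Ncf4* on this scale. Markers of neutrophils, 8 in all, were detected unequally: *S100a9* had 118 per kb, *S100a8* 52.1, *Ngp* 26.9 and *Camp* 18.3, whereas *Elane*, *Mpo*, *Mmp8* and *Ly6g* had between 0.616 and 2.70. The 7 lymphocyte markers summed to a base mean of 33.7 and were all below *Cybb* per kb, with a median of 0.700. For the cells outside the myeloid lineage, the 4 endothelial markers had a median of 137 per kb and the 4 markers of mural cells one of 131, against 2.89 for *Nox4*. How much each cell type contributed to the levels of the oxidase genes was not tested.

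**Figure D4:**
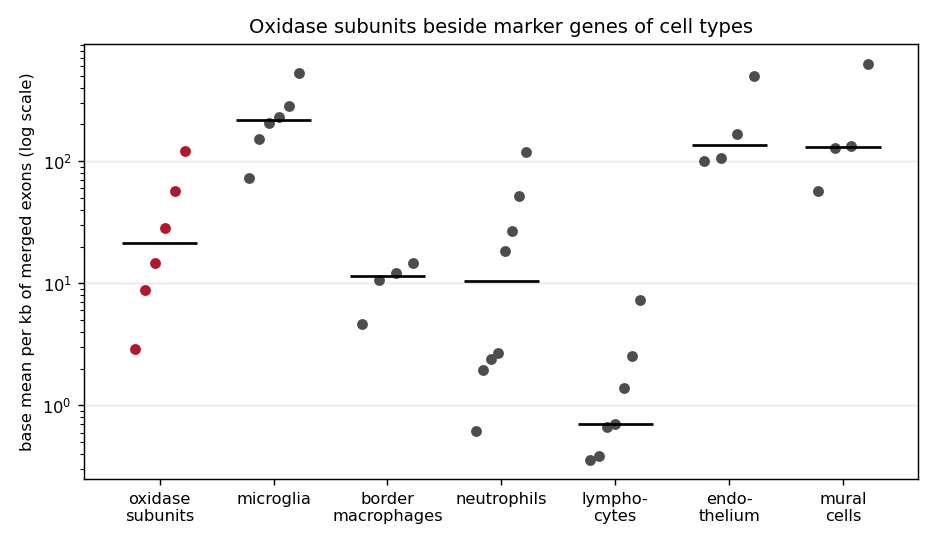
Base mean per kb of merged exons (log scale) of the 6 oxidase genes (red) and of marker genes of 6 cell types (grey), with each gene a point and the median of each list a line. The median of the oxidase genes is 21.5. Above it lie the medians of the microglial (218), endothelial (137) and mural (131) markers. Below it lie those of the border macrophage (11.4), neutrophil (10.5) and lymphocyte (0.7) markers.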

How the data were processed

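RNA of the spinal cord of 5 WT and 5 SOD1G93A female mice had been sequenced, and groups were taken from the sample titles. According to the methods and the submitters' processing notes, the authors trimmed reads with Fastp, aligned them to mm10 with HISAT2 2.1.0 and counted uniquely mapped reads per gene with featureCounts 2.0.2. The gene annotation and strand setting are not given in the sources used here. The deposited base mean is a signal that the authors obtained by dividing counts by size factors and averaging over all 10 libraries. The table's other 5 columns hold the authors' fold change, its standard error, a statistic and p-values, and none was used. With 1 pooled mean per gene, no depth per library, spread between mice or test of genotype was computed.

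Gene models and coordinates were taken from GENCODE vM21 (GRCm38, the build of mm10), to which 24312 of the 25232 symbols matched once. Merged exons were the main length, in place of the RefSeq exons planned, and coding length was the longest coding sequence in GENCODE. Counting intervals (exact Poisson for levels, exact binomial for ratios, 95%) were checked on simulated Poisson counts. The simulation held no size factors and no differences between mice, so it checks the computation only. Alternatives were 2 other lengths, minimum base means of 1 and 10, leaving out the 10 highest genes, and list medians over genes above 0. Every gene of the set and of the lists was to be named, and 1 gene of the lists is not reported here. The genes, lists and ratios were chosen with earlier results of these data known, and genes with overlapping exons were named after their values were seen. Python 3.11.15, numpy 2.4.6, pandas 2.3.3, scipy 1.17.1 and matplotlib 3.10.9 were used.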

Additional observations from a re-analysis of the deposited data

How the results depend on the processing

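The 2 other definitions of gene length moved most ratios out of the counting interval found with merged exons. Of the ratios with these lengths, 31 moved, 1 changed direction and 8 stayed within the interval. The levels per kb of the 6 genes left it in 11 cases and stayed within it in 1. With the longest transcript and the coding length, the ratio per kb of *Cyba* to *Cybb* was 15.9 and 7.38, that of *Cyba* to *Nox4* 27.2 and 15.9, and that of *Cybb* to *Nox4* 1.71 and 2.16. With the coding length, the ratio was 5.96, against 3.92, for *Ncf1* to *Ncf4* and 5.61 for *Nox1* to *Cybb*. The ratio of *Ncf4* to *Cybb* changed direction with the coding length, to 0.979, and its counting interval included equality. Limiting the ranking to genes at 10 normalised counts or more lowered the percentiles, since fewer low genes were ranked. They were then 31.4 for *Ncf1*, 13.8 for *Cybb* and 7.30 for *Nox4*. With minimum base means of 1 and 10, the percentile left its counting interval in all 12 cases. The share of all base means stayed within the counting interval in 11 of 12 cases, and the exception was *Ncf1* at 9.97 of every 1000000 normalised counts without the 10 highest genes, against 9.48. Leaving out those genes raises every share by the same factor. *Ncf1* left its interval because its counting error, 2.18%, was the smallest of the set, so this count does not measure how stable each share is. List medians were identical over genes above 0, because 0 genes of the lists had a base mean of 0. No paired analysis was possible because the table holds no values of single libraries, and for the same reason no replicate could be left out. Depth limits *Nox3* and *Noxa1*, at about 1 and 2 reads.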
